A study of Mus musculus with 9 samples.

Results

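The genes described here encode the constitutive proteasome, the protease that degrades proteins tagged with ubiquitin. They were chosen by symbol: every probe set with 1 annotated gene symbol beginning Psma, Psmb, Psmc or Psmd and a digit, except the inducible and tissue-bound catalytic subunits Psmb8, Psmb9, Psmb10 and Psmb11. This gave 36 genes with 75 probe sets, of 18193 genes on the array. Of these, 15 belong to the core particle (8 alpha and 7 beta subunits) and 20 to the regulatory particle. The last, Psmc3ip, is a partner protein of meiotic recombination that shares the symbol's first letters, is no proteasome subunit and was counted apart.

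The study used Affymetrix arrays on RNA from sorted mouse cells, in work on NOTCH1 overexpression and T cell acute lymphoblastic leukemia. The 3 groups, each of 3 arrays, are named in the labels as control, abnormal non-malignant and NIC tumor. The labels do not spell out NIC, the strain, age or genotype of the mice, what drives NOTCH1, the population sorted, or whether the arrays of a group came from separate animals. All p-values here therefore measure only the spread between these arrays, which may be technical. The values are the authors' normalized log2 signals. Cd3d, a chain of the T cell receptor complex that defines T cells, read 12.42 to 13.26 on all 9 arrays. The mean log2 signal of 7 T lineage markers, Cd3d among them, ran from 12.18 to 12.34 in controls, 12.36 to 12.44 in non-malignant samples and 11.44 to 12.02 in tumors. In tumors 6 of the 7 had a mean below that of controls (5801 of the 13296 genes tested did). All 3 tumors lay below all 3 controls in 3 of the 7 (14.3% of all genes). Cd247 and Thy1 fell by 2.09 and 1.29 (limma adjusted p = 0.00489 and 0.0212). Cd2 went the other way, with a difference of 0.56 in tumors, where it did not pass. In non-malignant samples Cd2 rose by 1.42 (limma adjusted p = 0.0072).

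The proteasome is a barrel with a cap at its ends. The barrel, or core particle, stacks outer rings of alpha subunits, which gate the entry, on inner rings of beta subunits, some of which cut proteins. The cap, or regulatory particle, has a base with a ring of ATPases that unfold substrates and a lid that removes their ubiquitin chains. Dividing cells, thymocytes and leukemia cells among them, depend on it to destroy cyclins and other short-lived proteins, and drugs that block its catalytic subunits are used against blood cancers.

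Each gene is read from its brightest probe set, taken over all arrays, and was tested where 3 or more arrays showed a signal over their own 40th percentile. Of the 36 genes, 35 were tested, which leaves 14 core and 20 regulatory particle genes. The exception was Psma8, the alpha subunit of testis, which read 4.22 to 4.44 on all arrays. The 3 groups were compared in 1 limma fit of 13296 genes, and "rose" or "fell" is used only for a Benjamini-Hochberg adjusted p under 0.05 over all of them.

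Non-malignant samples 2 and 3 lay closer together than any other pair: the SD of their differences was 0.16 over all genes tested, against 0.30 for controls 1 and 3, the next closest. The labels do not say how these 2 arrays are related, so counts of members are also given with the pair averaged into 1 array.

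In NIC tumors, 6 of the 34 tested proteasome genes rose against controls and none fell at its chosen probe set, where 8.48% of all genes tested rose, 7.19% fell and 15.7% changed in either direction. The 2 that rose in the core particle were Psmb2 and Psmb5. The 4 in the regulatory particle were Psmd1, Psmd9, Psmd12 and Psmd14. Their rises ran from 1.38-fold to 1.90-fold. With non-malignant samples 2 and 3 averaged, the 2 core genes and 1 regulatory particle gene rose (11.1% of all genes changed). The list as a whole lay higher: 30 of 34 genes had a mean difference above 0 (56.4% of all genes), and the median difference was 0.26 on the log2 scale (0.06 over all genes tested). These are bulk samples, so fewer cells of a type and less RNA per cell cannot be told apart.

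**Figure D1:**
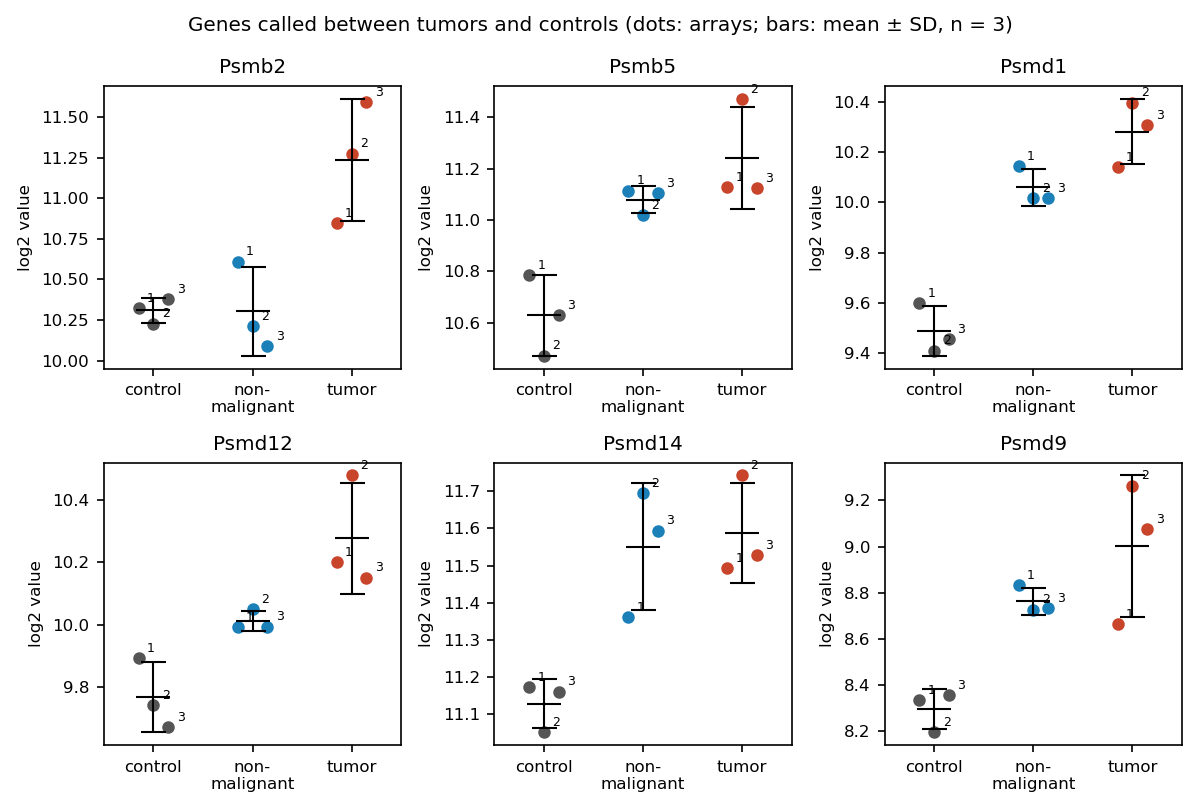
Log2 signal of the 6 proteasome genes that rose in tumors, on each of the 9 arrays; points are arrays and bars are group means. All 3 tumor arrays lie above all 3 control arrays in each panel, while for Psmb2 the non-malignant arrays lie among or near the controls.

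In the core particle, Psmb2, a beta subunit without a catalytic site, showed the largest difference. It read 10.32, 10.23 and 10.38 in controls, 10.61, 10.21 and 10.09 in non-malignant samples, and 10.84, 11.27 and 11.59 in tumors. All tumors lay above the other 6 arrays, whose 2 groups overlapped. The group means were 10.31 ± 0.08, 10.30 ± 0.27 and 11.24 ± 0.37 (SD, n = 3 each). Psmb2 rose by 0.93 ± 0.21 in tumors (log2 difference ± SE, 1.90-fold, limma adjusted p = 0.0191). This call was lost in limma when control 1, 2 or 3 or tumor 2 was left out, with differences of 0.75 to 1.12 over all single omissions.

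Psmb5 is the subunit with chymotrypsin-like activity and the main target of proteasome inhibitors. It read 10.78, 10.47 and 10.63 in controls, 11.11, 11.02 and 11.10 in non-malignant samples, and 11.13, 11.47 and 11.12 in tumors. Controls lay below all other arrays. Psmb5 rose by 0.61 ± 0.15 in tumors (1.53-fold, limma adjusted p = 0.0226), a call lost without control 2, control 3 or tumor 2 (0.50 to 0.69 over all single omissions). The difference of non-malignant samples from controls was 0.45 (95% interval 0.12 to 0.78, limma adjusted p = 0.179).

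The other catalytic subunits did not pass the test. Psmb6, with caspase-like activity, read 10.39, 10.23 and 10.49 in controls, 10.55, 10.59 and 10.49 in non-malignant samples, and 10.45, 10.58 and 10.49 in tumors. Psmb7, with trypsin-like activity, read 11.86, 11.88 and 11.84 in controls, 11.56, 11.99 and 12.02 in non-malignant samples, and 11.88, 11.99 and 11.85 in tumors. The groups overlapped in both genes, apart from non-malignant samples in Psmb6, all of which lay above the controls. The tumor difference was 0.14 for Psmb6 (95% interval -0.16 to 0.44, limma adjusted p = 0.496) and 0.04 for Psmb7 (-0.26 to 0.35, limma adjusted p = 0.851), so both intervals end below a 2-fold change.

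Among the alpha subunits, 0 of 7 tested genes passed the limma test in tumors (8.48% of all genes rose). At an unadjusted p under 0.05, 2 were higher (17.4% of all genes). These were Psma4 and Psma7. Psma4 read 11.51, 10.70 and 10.84 in controls and 11.57, 11.60 and 11.94 in tumors, a difference of 0.69 (95% interval 0.22 to 1.16, limma adjusted p = 0.0533). Its control 1 stood far above the other controls and just below tumor 1. Psma7 read 10.03, 10.20 and 10.36 in controls and 10.61, 10.82 and 11.32 in tumors, a difference of 0.72 (limma adjusted p = 0.0623). In the beta ring all 7 genes had a mean difference above 0, with a median of 0.40, and Psmb1, Psmb3 and Psmb4 had adjusted p of 0.0886, 0.0634 and 0.0655 in limma.

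In the regulatory particle, Psmd1, the large scaffold subunit of the base, had the smallest adjusted p of all members. It read 9.60, 9.41 and 9.46 in controls, 10.14, 10.02 and 10.02 in non-malignant samples, and 10.14, 10.40 and 10.31 in tumors. Controls stood apart from both other groups. The means were 9.49 ± 0.10, 10.06 ± 0.07 and 10.28 ± 0.13 (SD, n = 3 each), and Psmd1 rose by 0.79 ± 0.14 in tumors (1.73-fold, limma adjusted p = 0.00848). This was the one member called under every single omission, with differences of 0.74 to 0.86.

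Of the ATPase ring, 0 of 6 genes passed the limma test in tumors (8.48% of all genes rose and 7.19% fell). At an unadjusted p under 0.05, 0 were higher or lower (17.4% and 14.8% of all genes). The median difference of this ring was 0.20. The lid held 2 genes that rose. Psmd12, a scaffold subunit of the lid, read 9.89, 9.74 and 9.67 in controls, 9.99, 10.05 and 9.99 in non-malignant samples, and 10.20, 10.48 and 10.15 in tumors, which ordered the groups without overlap. It rose by 0.51 ± 0.15 (1.42-fold, limma adjusted p = 0.0475). Psmd14, the deubiquitinase of the lid, read 11.17, 11.05 and 11.16 in controls, 11.36, 11.70 and 11.59 in non-malignant samples, and 11.49, 11.74 and 11.53 in tumors. Controls were again below all other arrays, which overlapped among themselves. It rose by 0.46 ± 0.13 (1.38-fold, limma adjusted p = 0.0452).

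Psmd9 belongs to the assembly chaperones of the base, which carry a Psmd symbol but leave the finished particle. It read 8.33, 8.20 and 8.36 in controls, 8.83, 8.73 and 8.73 in non-malignant samples, and 8.66, 9.26 and 9.08 in tumors. Controls were the lowest 3 arrays. Psmd9 rose by 0.71 ± 0.18 (1.63-fold, limma adjusted p = 0.0294). Its second probe set, of lower signal, gave a difference of 0.13, and with its probe sets averaged the difference was 0.059 and the call was lost. Psmd5, another of these chaperones, stayed between 8.37 and 8.52 on all arrays. The calls of Psmd9, Psmd12 and Psmd14 were each lost under 7 of the 9 single omissions, and the differences ran from 0.38 to 0.88. Psmc3ip, counted apart, read 7.95, 7.75 and 7.68 in controls, 7.94 on each non-malignant array, and 8.14, 8.57 and 8.42 in tumors, and rose by 0.58 ± 0.16 (1.5-fold, limma adjusted p = 0.0405), a call lost under 8 of the 9.

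**Figure D2:**
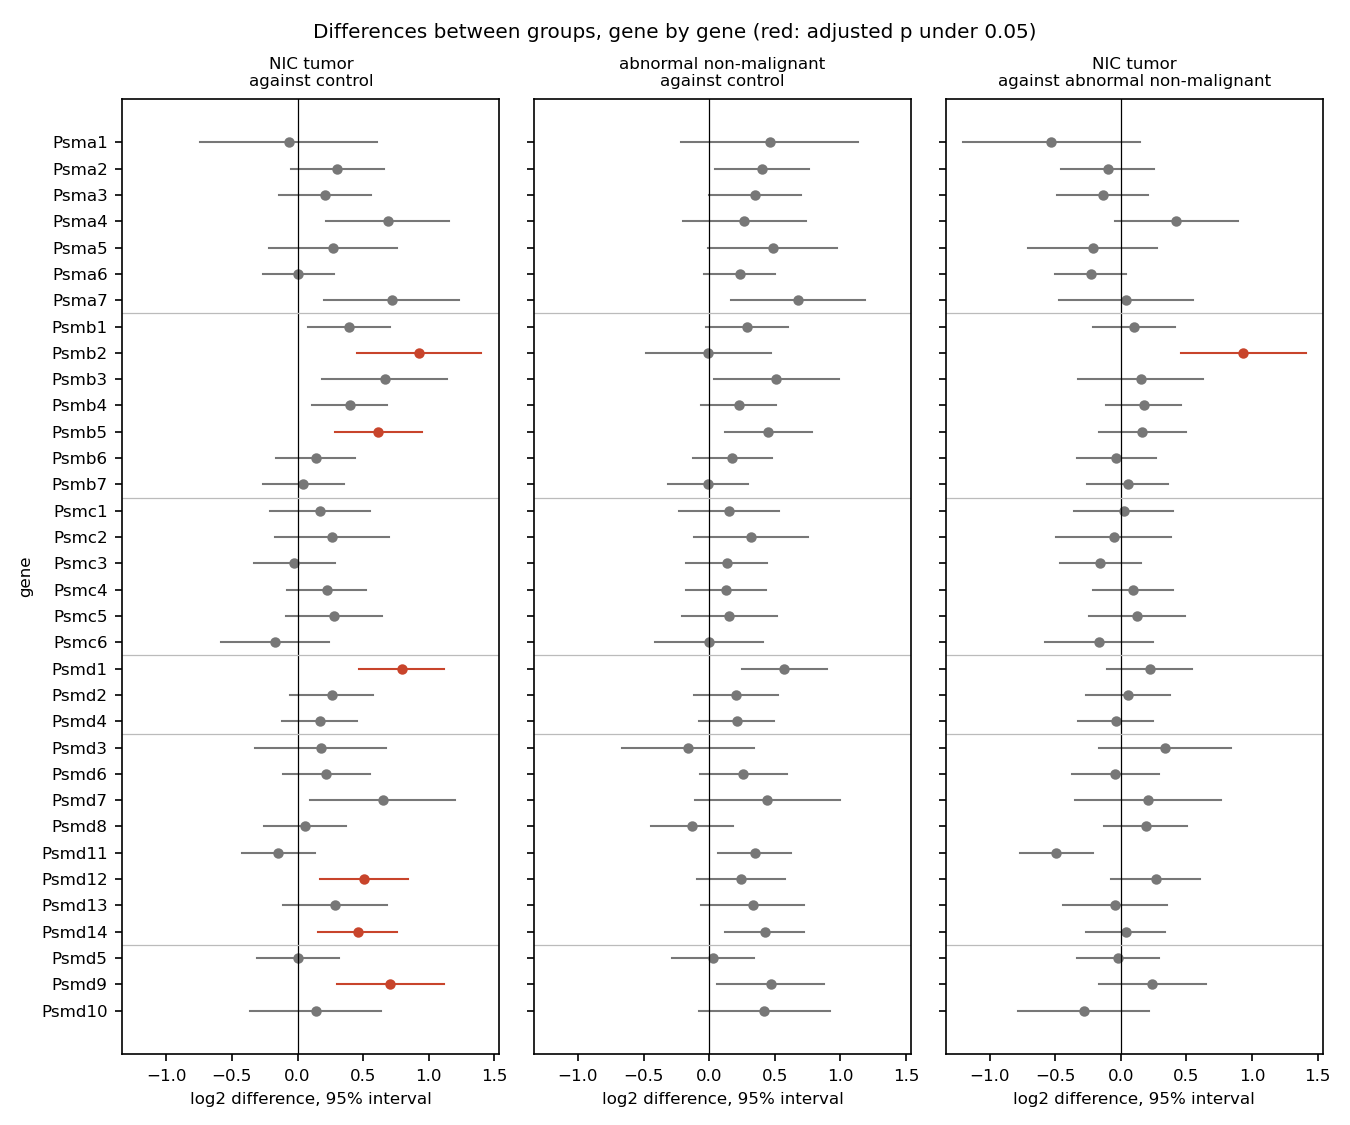
Log2 difference of each tested member for the 3 comparisons of groups, with 95% intervals from limma, ordered by place in the complex. Red points passed the test and gray points did not. In tumors against controls most points lie right of 0, and in tumors against non-malignant samples they lie on both sides.

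The promoters of the 5 members that rose and had an entry in the table used are shown because these genes rose in the same comparison and several proteasome genes are known targets of NRF1 and NRF2, which bind antioxidant response elements. Sequences are the 250 bases before the transcript start from RefSeq (GRCm38.p6), 5′ to 3′ on the gene's strand; 28 of the 35 subunit genes had an entry. The searched motifs were TGANNNNGC, the core of the antioxidant response element, the E-box CACGTG and the CCAAT box, on both strands, any overlap with another motif counted. Capitals mark every match. Psmb5 lies on the reverse strand (chr14:54617996-54618245). On the forward strand lie Psmd1 (chr1:86064369-86064618), Psmd9 (chr5:123227940-123228189), Psmd12 (chr11:107479278-107479527) and Psmd14 (chr2:61711444-61711693).
Psmd1: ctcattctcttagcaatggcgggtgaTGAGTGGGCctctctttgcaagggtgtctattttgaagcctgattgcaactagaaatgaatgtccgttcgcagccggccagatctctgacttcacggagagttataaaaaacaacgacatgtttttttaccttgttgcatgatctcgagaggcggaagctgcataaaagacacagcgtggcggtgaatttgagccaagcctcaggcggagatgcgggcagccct
Psmb5: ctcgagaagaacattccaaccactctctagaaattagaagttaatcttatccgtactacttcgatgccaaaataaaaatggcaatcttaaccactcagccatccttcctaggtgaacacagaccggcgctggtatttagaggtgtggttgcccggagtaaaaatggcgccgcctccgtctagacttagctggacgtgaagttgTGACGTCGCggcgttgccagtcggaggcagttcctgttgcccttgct
Psmd9: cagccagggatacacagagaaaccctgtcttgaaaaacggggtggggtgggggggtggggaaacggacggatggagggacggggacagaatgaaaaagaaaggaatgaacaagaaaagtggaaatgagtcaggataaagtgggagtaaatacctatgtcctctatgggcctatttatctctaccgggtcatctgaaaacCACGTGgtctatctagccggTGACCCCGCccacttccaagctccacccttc
Psmd12: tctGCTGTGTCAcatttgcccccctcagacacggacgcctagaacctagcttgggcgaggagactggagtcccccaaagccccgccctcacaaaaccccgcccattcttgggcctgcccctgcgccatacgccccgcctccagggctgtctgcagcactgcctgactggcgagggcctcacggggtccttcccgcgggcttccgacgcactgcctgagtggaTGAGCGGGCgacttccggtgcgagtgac
Psmd14: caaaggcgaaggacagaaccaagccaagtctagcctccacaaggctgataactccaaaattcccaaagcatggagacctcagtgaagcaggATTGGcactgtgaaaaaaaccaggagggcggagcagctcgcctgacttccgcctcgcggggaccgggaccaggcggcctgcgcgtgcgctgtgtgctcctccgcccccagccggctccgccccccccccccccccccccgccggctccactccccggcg
TGANNNNGC occurred in 35.2% of all 32851 promoter windows of this length and in 12 of the 30 windows of the subunit genes (40%). Counted by gene, 10448 of 27025 held it. Psmb2, which also rose, had no entry. Of the 5 genes shown, 4 held it (Psmb5, Psmd1, Psmd9 and Psmd12), as did 7 of the 23 subunit genes that did not pass. These counts of subunit genes were not tested against each other. CACGTG was present in 6.02% of all windows, and among these genes in Psmd9 and Psma4. The CCAAT box was in 33.9% of all windows and in 11 of 30 here, among them Psmd14. A match describes the letters alone.

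In abnormal non-malignant samples, which shared the control arrays with the tumor comparison, no proteasome gene passed the test against controls (0 of 34 in limma, where 3.53% of all genes tested did, 2.87% upward and 0.654% downward). At an unadjusted p under 0.05, 9 of the 34 were higher and 0 lower (9.36% and 3.92% of all genes). The median difference of the 34 genes was 0.26 (0.01 over all genes), 29 of 34 genes lay above 0 (51.3% of all genes), and 18 had all 3 non-malignant arrays above all 3 controls (17% of all genes), while 0 had all 3 below (9.15%). In tumors all 3 arrays lay above all 3 controls in 15 of the 34 genes (18.2% of all genes) and below them in 1, Psmd11 (14.3%). The 95% limma interval lay within a 2-fold change either way for 32 of the 34 genes in non-malignant samples (79.2% of all genes), and for 27 in tumors (65.1%). With non-malignant samples 2 and 3 averaged, 30 genes lay above 0 (52.7% of all genes) and 19 lay above all controls (19.3%). In that fit 0 of 34 passed in limma, where 1.56% of all genes did.

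The alpha ring had a median of 0.40 and the beta ring 0.22 in non-malignant samples, against 0.27 and 0.40 in tumors. The regulatory particle stood at 0.23 in non-malignant samples and 0.22 in tumors. Psmd1 came nearest to the threshold in non-malignant samples, with a difference of 0.57 ± 0.14 (1.49-fold, limma adjusted p = 0.0699), and passed it when tumor 1 or tumor 3 was left out of the shared fit. Psma7 read 10.48, 11.10 and 11.04 there, with all 3 arrays above the controls, and a difference of 0.68 (limma adjusted p = 0.197). Psma2, another alpha subunit, read 11.39, 11.52 and 11.40 in controls, 11.49, 12.04 and 11.99 in non-malignant samples, and 11.82, 11.79 and 11.61 in tumors. Its non-malignant difference was 0.40 (limma adjusted p = 0.287), with the first array among the controls.

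Tumors and non-malignant samples differed in 1 gene of the 34: Psmb2 was higher in tumors by 0.93 ± 0.21 (1.91-fold, limma adjusted p = 0.0434), where 1.53% of all genes tested were higher, 2.7% lower and 4.23% changed in either direction. This call was lost under 8 of the 9 single omissions, with differences of 0.76 to 1.13, and was kept without tumor 1. It was also lost with non-malignant samples 2 and 3 averaged, where 0 of 34 members passed in limma (0.499% of all genes did). All 3 tumors lay above all 3 non-malignant arrays in 4 genes (12.3% of all genes), and in 5 with the pair averaged (15.15%). The 95% interval lay within a 2-fold change either way for 32 of the 34 (69.4% of all genes). A mean difference above 0 was found in 19 genes (53.5% of all genes). The median of the members was 0.04 (0.03 over all genes), and turned to -0.02 without tumor 2. In the alpha ring 2 of 7 genes lay above 0, and in the beta ring 6 of 7.

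Psma1 and Psmd11 had the largest downward differences in this comparison, and neither passed. Psma1, an alpha subunit, read 9.61, 9.75 and 9.70 in controls, 9.42, 10.60 and 10.44 in non-malignant samples, and 9.75, 9.87 and 9.23 in tumors. Its tumor minus non-malignant difference was -0.53 (limma adjusted p = 0.286), with non-malignant sample 1 and tumor 3 low in their groups. Psmd11, a lid subunit that bridges to the core, read 10.97, 10.98 and 11.10 in controls, 11.46, 11.36 and 11.26 in non-malignant samples, and 10.95, 10.78 and 10.89 in tumors. The non-malignant arrays were the highest 3. The difference was -0.49 (95% interval -0.77 to -0.21, limma adjusted p = 0.0572), but 0.29 in its next probe set, and 0.22 when its probe sets were averaged.

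Ordered by group mean, controls were lowest in 11 of 14 core genes and 15 of 20 regulatory particle genes. The order control, non-malignant, tumor held in 6 and 9 of them (25.4% of all genes), and control, tumor, non-malignant in 5 and 6 (11% of all genes). No control array was the highest of the 9 in any of the 34 genes, a count that was not made over all genes.

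**Figure D3:**
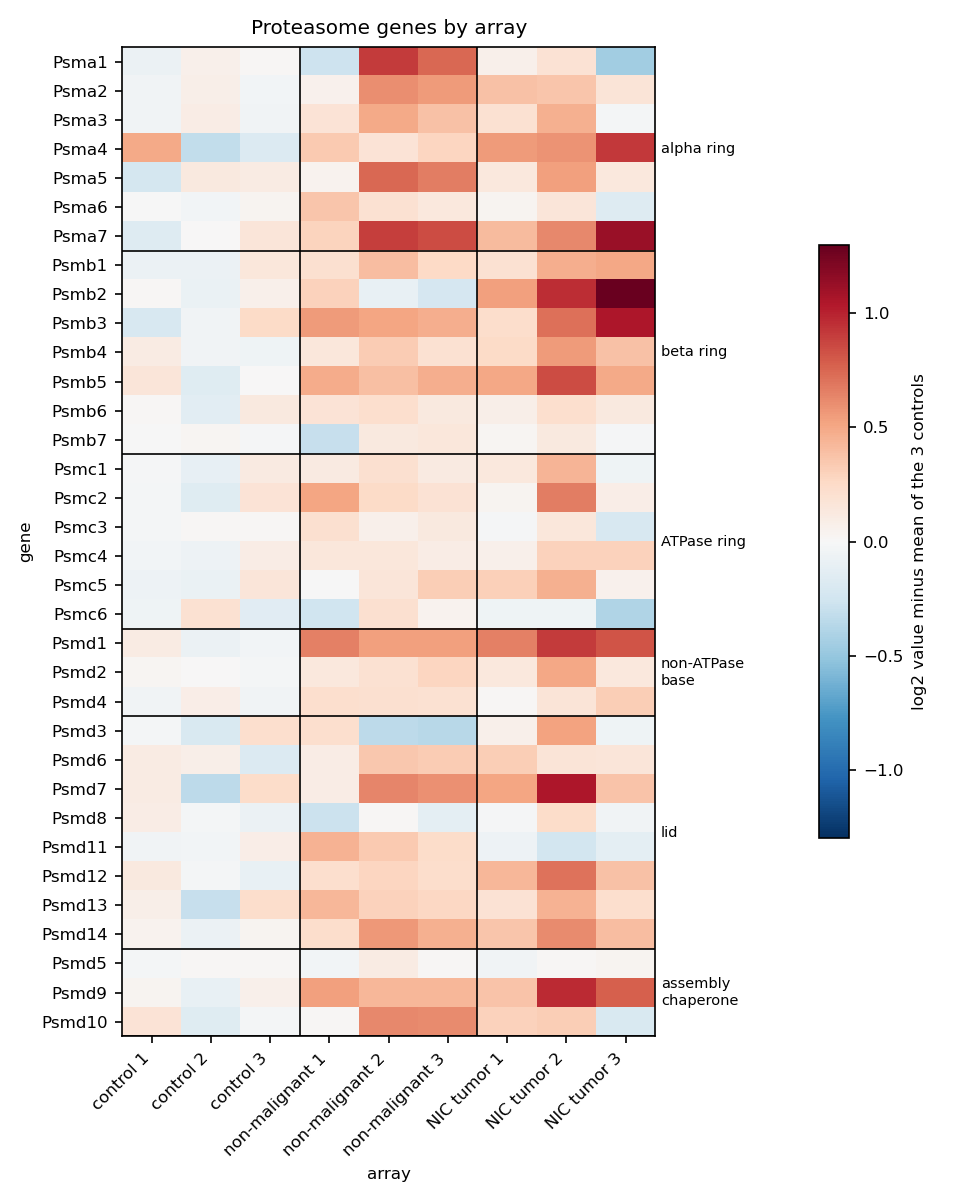
Log2 signal of each tested member on each array, minus the gene's mean over the 3 controls; genes are ordered by place in the complex and the color scale is symmetric around 0. Non-malignant and tumor columns are mostly above the control columns, and tumor 2 is the highest tumor in most genes.

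The arrays within a group were uneven. The median of the 20 regulatory particle genes, relative to their control means, was 0.14, 0.44 and 0.11 in tumors 1, 2 and 3, and 0.18, 0.23 and 0.23 in the non-malignant samples. For the core particle the medians were 0.21, 0.50 and 0.28 in tumors and 0.19, 0.40 and 0.33 in non-malignant samples. Tumor 2 was the highest tumor in 24 of the 34 genes and the highest of all arrays in 15, of which 13 belong to the regulatory particle. These counts were not made over all genes. Over all genes tested, the medians of tumors 1, 2 and 3 were -0.01, 0.09 and 0.06, so tumor 2 was the highest there too. Without tumor 2, the median tumor difference was 0.18 in place of 0.26 (0.03 in place of 0.06 over all genes tested). In that fit 27 of 34 genes lay above 0 (52.8% of all genes), and 0 core and 1 regulatory particle gene rose. The share of all genes that changed in either direction was 9.32% there, in place of 15.7%.

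**Figure D4:**
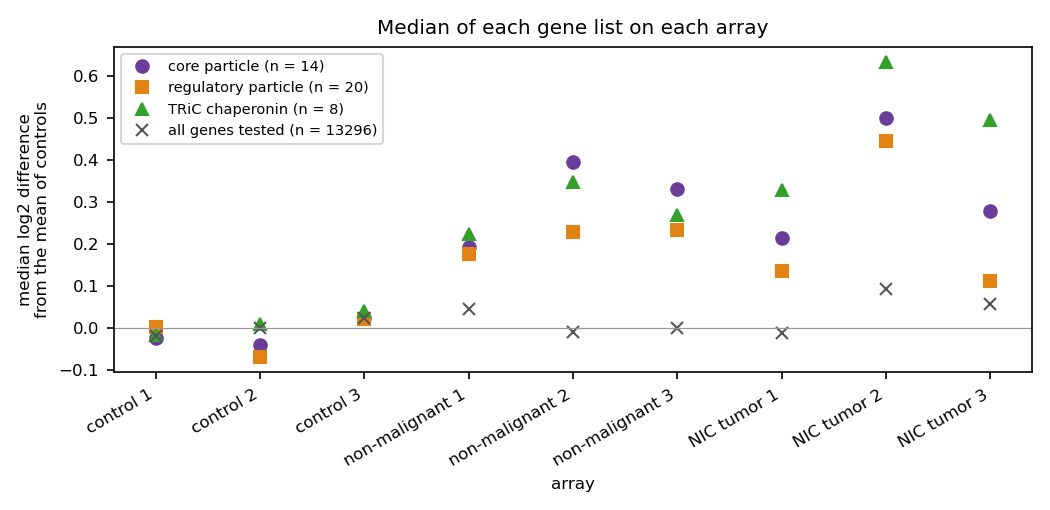
Median over the members of each group of subunits, on each array, of the log2 signal minus the gene's control mean, beside the median of all genes tested. Controls lie near 0, tumor 2 is highest among tumors in the core and regulatory particle, and non-malignant sample 1 is below samples 2 and 3 in both.

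In the alpha ring, non-malignant samples 2 and 3 (medians 0.60 and 0.56) lay above sample 1 (0.18). In the beta ring the 3 samples read 0.21, 0.33 and 0.20, so the gap of sample 1 was not seen there.

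Markers of other cell types and of CD4+CD8+ thymocytes varied between arrays and groups. The mean log2 signal of 15 myeloid markers ran from 5.58 to 5.80 in controls, 6.41 to 6.43 in non-malignant samples and 5.80 to 6.98 in tumors, highest in tumor 2. Cybb was under the 40th percentile on every array, and of 12 tested only Ctss rose, in both groups. All 3 non-malignant arrays lay above all controls in 7 of the 12 (17% of all genes), and all 3 tumors in 4 (18.2%). Of the 5 erythroid markers the mean ran from 5.82 to 6, 6.52 to 6.66 and 6.28 to 7.72, again highest in tumor 2. Hba-a1 was under the 40th percentile on every array and 0 of 4 tested passed. All 3 non-malignant arrays lay above all controls in 4 of these 4, and all 3 tumors in 2. The mean of 9 markers of CD4+CD8+ thymocytes ran from 11.32 to 11.83 in controls, 11.30 to 11.40 in non-malignant samples and 8.25 to 10.52 in tumors. In tumors 6 of the 9 fell against controls (7.19% of all genes) and 3 against non-malignant samples (2.7%). Of 6 tested B cell markers, 1 fell in tumors (7.19% of all genes) and 1 rose in non-malignant samples (2.87%), both against controls. In tumors against non-malignant samples 1 fell (2.7%). Thymic stroma and antigen-presenting cells had 5 tested markers each, of which 0 passed in any comparison. The part of these cell types in the proteasome values was not tested.

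Of the other proteasome pathway genes, 31 of 41 listed had a probe set of their own and 30 were tested; 7 rose and 3 fell in tumors (8.48% and 7.19% of all genes), and 3 rose and 0 fell in non-malignant samples (2.87% and 0.654%). With non-malignant samples 2 and 3 averaged, the calls against controls of Psmb8, Psmg1 and Ubqln2 in tumors and of Psmb9 and Psme1 in non-malignant samples were lost. So were the calls of Nfe2l2 and Ubqln2 in tumors against non-malignant samples. All 3 tested inducible catalytic subunits, which replace the constitutive ones in immune cells, rose in tumors. Psmb10, the substitute for Psmb7, read 9.30, 9.20 and 9.27 in controls, 10.76, 10.78 and 10.88 in non-malignant samples, and 10.35, 10.32 and 10.85 in tumors. It rose by 1.55 ± 0.17 in non-malignant samples (limma adjusted p = 0.00103) and 1.25 ± 0.17 in tumors (0.00225), and controls lay far below both groups. Psmb9, the substitute for Psmb6, read 9.47, 8.96 and 9.61 in controls, 10.15, 10.37 and 10.30 in non-malignant samples, and 10.12, 10.42 and 10.28 in tumors. It rose by 0.92 ± 0.19 (0.0299) and 0.93 ± 0.19 (0.0138), with controls again the lowest.

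Psmb8, the substitute for Psmb5, read 11.60, 11.26 and 11.30 in controls, 11.82, 11.91 and 11.94 in non-malignant samples, and 11.79, 12.05 and 11.74 in tumors, with no control among the others. It rose by 0.47 in tumors (limma adjusted p = 0.0436), a call lost under 6 of the 9 single omissions, and its non-malignant difference was 0.50 (0.0943). Psmb11, the subunit of the thymic cortex epithelium, read 4.10 to 5.45 and was not tested. Psme1, a subunit of the interferon-inducible activator cap, rose by 0.79 in both groups (0.0165 in non-malignant samples, 0.00882 in tumors). In limma, the calls of Psmb9, Psmb10 and Psme1 in tumors and of Psmb10 in non-malignant samples held under all 9 single omissions; those of Psmb9 and Psme1 in non-malignant samples were lost under 5 and 4.

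The inducible subunits were set against their constitutive partners on each array by the log2 ratio, each gene taken relative to its own control mean. An exact permutation test of 3 arrays against 3 cannot give a two-sided p under 0.1. The Psmb10 to Psmb7 ratio was higher than in controls by 1.56 in non-malignant samples and 1.21 in tumors, and the Psmb9 to Psmb6 ratio by 0.75 and 0.79 (exact p = 0.1 for each, with no overlap). The Psmb8 to Psmb5 ratio differed by 0.05 in non-malignant samples (exact p = 0.5) and by -0.14 in tumors (exact p = 0.1). For that pair the tumor arrays read -0.10, -0.18 and -0.14 and the controls 0.05, 0.03 and -0.08, so tumors lay just below controls.

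**Figure D5:**
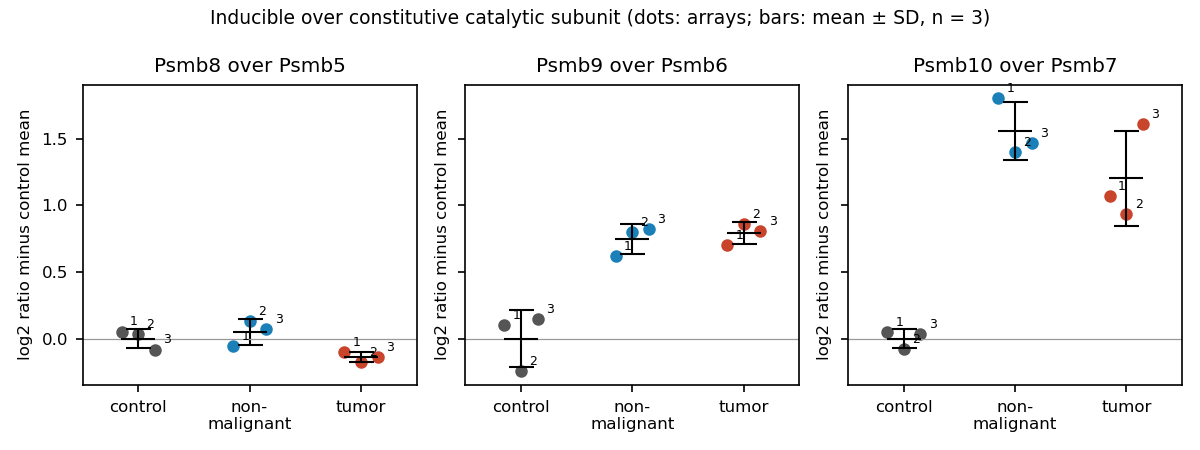
Log2 ratio of each inducible catalytic subunit to the constitutive one it replaces, per array, relative to the control mean; points are arrays and bars group means. The Psmb9 to Psmb6 and Psmb10 to Psmb7 ratios lie above all controls in both other groups, and the Psmb8 to Psmb5 ratio stays near 0.

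Of the 5 chaperones that assemble the core, 3 rose in tumors (8.48% of all genes) and 0 in non-malignant samples (2.87%). All 5 had a mean difference from controls above 0 in both groups (56.4% and 51.3% of all genes). All 3 arrays lay above all controls for 3 of them in tumors and 4 in non-malignant samples (18.2% and 17% of all genes). Psmg4 read 9.03, 8.37 and 9.08 in controls, 9.52, 9.22 and 9.19 in non-malignant samples, and 9.75, 10.14 and 10.04 in tumors, and rose by 1.15 ± 0.22 (limma adjusted p = 0.0104). Pomp, the maturation factor of the beta ring, read 10.70, 10.71 and 10.81 in controls, 11.12, 11.38 and 11.35 in non-malignant samples, and 11.15, 11.41 and 11.50 in tumors. It rose by 0.61 ± 0.14 (0.0194), and its non-malignant difference was 0.54 (0.0789). Psmg1 rose by 0.70 ± 0.20 (0.0392). Tumors lay above all controls in Psmg4, Pomp and Psmg1. The Psmg1 call was lost under 8 single omissions and that of Pomp without any 1 control or tumor 2.

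The 3 genes that fell in tumors were Nfe2l2, Akirin2 and Ubqln2. Nfe2l2, which encodes NRF2, read 8.50, 8.70 and 8.46 in controls, 8.35, 8.74 and 8.54 in non-malignant samples, and 7.68, 7.81 and 7.59 in tumors, where all 3 arrays were the lowest. It fell by 0.86 against controls (limma adjusted p = 0.0102) and by 0.85 against non-malignant samples (0.0284). Akirin2, needed for nuclear import of proteasomes, fell by 0.54 against controls (0.0253). Ubqln2, which carries ubiquitinated proteins to the proteasome, read 9.47, 9.51 and 9.92 in controls, 9.47, 10.10 and 9.97 in non-malignant samples, and 8.94, 8.73 and 7.88 in tumors, which lay below all other arrays. It fell by 1.12 against controls (0.0307) and by 1.33 against non-malignant samples (0.0405). Of the tumor against control calls, that of Nfe2l2 held under all 9 single omissions, and those of Akirin2 and Ubqln2 were lost under 5 and 6. Against non-malignant samples the calls of Nfe2l2 and Ubqln2 were lost under 6 and 8, and also with non-malignant samples 2 and 3 averaged. With all probe sets of a gene averaged, Ubqln2 differed by -0.39 from controls and Nfe2l2 by -0.27 from non-malignant samples, and neither passed. That averaging also ended the calls of Akirin2 against controls and of Ubqln2 against non-malignant samples. Over the 11 settings other than single omissions, the Akirin2 difference from controls ran from -0.599 to -0.305.

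Another cytosolic complex, the TRiC chaperonin that folds actin and tubulin, is given for scale. In tumors 5 of its 8 subunits rose (8.48% of all genes did), with a median difference of 0.44. In non-malignant samples 0 passed in limma (2.87% of all genes rose), 4 were higher at an unadjusted p under 0.05 (9.36% of all genes) and the median was 0.29. Its median per array was 0.33, 0.63 and 0.50 in tumors 1, 2 and 3.

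Of the genes chosen by symbol, 20 had several probe sets and 16 had 1. These 16 included Psmb2, Psmb5, Psmd1, Psmd12 and Psmd14. Among the proteasome genes that rose in tumors, only Psmd9 could therefore be compared with a second probe set. Of the 17 with at least 2 above the filter, the next brightest had the same sign as the chosen one in 13 in tumors against controls, 13 in non-malignant samples against controls and 11 in tumors against non-malignant samples. Psma7 gave 0.51 in its next probe set and 0.72 in the chosen one in tumors against controls. Psmd9 gave 0.13 against 0.71. Psmb4 gave -0.33 against 0.40, and Psmc4, an ATPase, -0.34 against 0.22, so these probe sets disagreed in direction, as did those of Psmd11, with 0.59 against -0.14. Psma1 gave -1.36 against -0.07, and that dimmer probe set fell when every probe set was tested on its own (limma adjusted p = 0.0286). By the manufacturer's suffixes, the chosen probe sets of Psma6 and Psmc2 (_x_at) may also match other transcripts, and that of Psmd11 (_s_at) is shared among transcripts, so these 3 values are less certain.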

How the data were processed

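RNA of sorted mouse cells on 9 Affymetrix arrays (3 each of control, abnormal non-malignant and NIC tumor) was read from the table of log2 values deposited by the authors, 1 column per array. The log2 base was read from the values, and the authors' background correction, normalization and summarization are not given in the sources used here. Array medians of all probe sets ran from 5.67 to 5.77 and no further scaling was added. Of 45101 probe sets, 64 are controls, 34945 carry 1 gene symbol, 932 several and 9160 none. Those with 1 symbol gave 18193 genes.

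The gene level, filter and comparisons are as given in the report. Fits used limma 3.58.1 in R 4.3.3, with 1 mean per group, variances moderated with a trend on the mean, 6 residual and 3.6 prior degrees of freedom, two-sided tests and Benjamini-Hochberg adjustment over all 13296 genes. Tables were handled in Python 3.11.15 with pandas 2.3.3. The fit was tested on simulated data. Values in every sample are given for the called members with the largest changes in each particle, the catalytic subunits, and members whose call differs between comparisons; pathway genes are named where called in any comparison, and the inducible catalytic subunits in all. Probe sets with several symbols were left out, so 10 listed pathway genes, Psme2 and Adrm1 among them, were not analysed here. Members and lists were chosen with earlier results of these data known. The number of arrays limits the precision. Alternatives were other filters, probe set rules, scalings, variance models, thresholds, the replicate number as a block and leaving out arrays; counts and medians over the list, and the pathway genes, were added to these after seeing the data. Comparative genomic hybridization and karyotyping were not used here.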

Additional observations from a re-analysis of the deposited data

How the results depend on the processing

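With array weights, 7 core and 8 regulatory particle genes passed in tumors against controls, 7 and 7 in non-malignant samples against controls, and 3 and 5 in tumors against non-malignant samples, where 36.7%, 18.2% and 42.9% of all genes passed. In tumors against controls, the 2 core genes became 4 with probe sets averaged, 1 with only the 2 groups fitted and 0 at an adjusted p under 0.01. The 4 regulatory particle genes became 2 without the filter, 2 with every probe set tested, and 1 with only the 2 groups, at the stricter threshold, or with non-malignant samples 2 and 3 averaged. With only the 2 groups fitted, 1 regulatory particle gene passed in non-malignant samples against controls. In tumors against non-malignant samples, the 1 core gene became 0 without the filter, with every probe set, with only the 2 groups, at the stricter threshold and with the pair averaged, and 1 regulatory particle gene passed with a filter at the 60th percentile. Leaving out 1 array gave 0 to 7 core and 1 to 4 regulatory particle genes in tumors against controls (7 core genes without tumor 1, where 31.1% of all genes passed), and 0 to 1 of each in both other comparisons. The replicate number as a block left 1 regulatory particle gene in tumors against controls and 0 core genes in tumors against non-malignant samples. The correlation of the deviations of same-numbered arrays ran from -0.05 to 0.22 and was over 0.1 in 3 of 9 pairs. For arrays with different numbers it ran from -0.26 to 0.21 and was over 0.1 in 3 of 18. These overlapping ranges do not settle whether the numbers pair the samples, and the main fit left the numbers out. The 18 genes with all non-malignant arrays above all controls became 11 with probe sets averaged, and the 4 with all tumors above all non-malignant arrays ranged from 4 to 10 under single omissions. The median of tumors against non-malignant samples ranged from -0.0245 to 0.0757 under single omissions, negative without tumor 2, and reached 0.135 with quantile normalization. The median of tumors against controls was 0.161 with probe sets averaged and 0.419 with array weights, and that of non-malignant samples against controls 0.156 with probe sets averaged. Psmd11 turned from -0.49 to 0.22 with probe sets averaged. The causes were not tested, beyond the fewer arrays of an omission. Psmd1 kept its call in tumors under all 9 single omissions and the 11 other settings run for it.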
